A study of Mus musculus with 45 samples.

Results

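The E2f family of transcription factors was followed as the 8 genes E2f1 to E2f8, each represented by 1 row among the 22080 genes of the expression table. Expression was measured in liver, kidney and brain of male C57BL/6 mice that began the diets at 7 weeks of age and were studied at day 43. The 5 diet groups were a standard AIN-93 diet (Control), the same diet with 0.5% cholesterol (HCD), and the high-cholesterol diet with 1.0% of a *Ganoderma lucidum* extract (HCD+Gl-1), with 1.0% of an extract of the fungus grown on substrate enriched with 10 mM acetylsalicylic acid (HCD+Gl-2), or with simvastatin at 0.03% of the diet by weight (HCD+Sim). All groups other than Control therefore ate cholesterol, and each held 8 mice. Each of the 15 tissue by diet groups had 3 Affymetrix Mouse Gene ST arrays: 1 array each for the RNA of 4 mice (pool A), of the remaining 4 mice (pool B) and of pools A and B mixed together (pool C). The family was chosen by the level of E2f8 in liver, which had been seen to be higher under both extracts than under HCD, so every value of those liver comparisons is given as a description, with no test.

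E2F proteins control the genes that carry a cell from G1 into S phase. E2f1, E2f2 and E2f3 encode the classical activators, E2f4 and E2f5 encode factors that act mostly as repressors together with the pocket proteins, and E2f6 encodes a repressor that does not bind pocket proteins. All of these bind DNA as dimers with a DP partner. E2f7 and E2f8 encode the atypical members, which carry a pair of DNA-binding domains, need no DP partner and repress E2F target genes. In liver both are known for their part in hepatocytes becoming polyploid.

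E2f7 and E2f8, the closest relatives in the family, differed in how much they varied across the liver arrays, so the promoters of this pair are shown before their values. The sequences are those of RefSeq for the mouse assembly GRCm38.p6, where 6 of the 8 members had an entry, E2f4 and E2f5 being the others. The 250 bases before the annotated start are printed, and capitals mark the letters of an E2F-type motif. The E2f7 stretch is chr10:110745189-110745438 on the plus strand and the E2f8 stretch is chr7:48881597-48881846 on the minus strand.
E2f7: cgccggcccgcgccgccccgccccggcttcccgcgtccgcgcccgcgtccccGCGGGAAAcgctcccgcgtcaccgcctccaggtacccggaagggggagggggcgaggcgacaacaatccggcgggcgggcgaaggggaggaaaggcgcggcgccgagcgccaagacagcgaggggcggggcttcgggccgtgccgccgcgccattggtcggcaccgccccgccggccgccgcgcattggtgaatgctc
E2f8: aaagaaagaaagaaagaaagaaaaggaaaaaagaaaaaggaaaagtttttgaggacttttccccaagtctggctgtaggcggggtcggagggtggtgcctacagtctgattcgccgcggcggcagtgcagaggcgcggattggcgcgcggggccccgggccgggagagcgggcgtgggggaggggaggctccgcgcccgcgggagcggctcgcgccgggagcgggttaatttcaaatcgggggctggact

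The motifs searched were TTTCGCGC, TTTGGCGC and TTTCCCGC on both strands of windows holding 250 bases before and 50 after a start. TTTCCCGC lay in the E2f7 window on the opposite strand, its first base at position -198 relative to the start, and no exact copy of the 3 motifs was in the E2f8 window. Only exact copies were searched. The E2f8 stretch printed above holds attggcgc, which differs from TTTGGCGC by 1 letter, so it cannot be said to lack E2F-type letters. Among the other members, TTTGGCGC lay in 1 E2f2 window from base 40 after the start, and TTTCCCGC lay in 1 E2f3 window on the opposite strand from position -11. The 30 bases around these matches are chr4:136172294-136172323 (plus strand) for E2f2 and chr13:29986056-29986085 (minus strand) for E2f3, with the match in capitals.
E2f2: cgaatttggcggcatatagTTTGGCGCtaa
E2f3: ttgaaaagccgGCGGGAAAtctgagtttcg

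Over all 32851 promoter windows, 0.323% held TTTCGCGC, 0.514% held TTTGGCGC and 1.07% held TTTCCCGC, against 3 of the 8 member windows holding any of them and 1.84% of all windows. No match overlapped another, and the windows of E2f1 and E2f6 held none. A match describes letters in the window and not a site in use.

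The tissue labels were checked against defining genes. The mean of 6 hepatocyte genes lay between 13.22 and 13.31 on the log2 scale on the 15 liver arrays and at 7.95 or lower on kidney and brain arrays, and the kidney tubule and neuron or glia lists were likewise highest on their own tissue's arrays. Genes typical of other tissues read higher on some liver arrays, and the origin of this signal was not tested. For Pnlip, Clps, Myh1 and Myh2, members of the pancreas and muscle lists below, the paper describes activation by simvastatin in liver. The mean of 12 squamous epithelium genes was 6.38 and 6.68 on the Control arrays of pools A and B and from 5.72 to 6.07 on the other 13 liver arrays. The mean of 9 pancreas acinar genes was 7.65, 8.18 and 6.48 on the HCD+Sim arrays and from 6.15 to 6.40 on the other 12. That of 8 skeletal muscle genes was 7.40, 7.84 and 6.57 under HCD+Sim and 6.99, 7.05 and 6.87 under Control. It was 6.42, 6.69 and 6.47 under HCD, from 6.22 to 6.40 under HCD+Gl-1 and from 6.37 to 6.55 under HCD+Gl-2. The p-values below measure the spread between arrays that rest on 2 separate pools of mice per group. In whole tissue, fewer cells of a type and less RNA per cell cannot be told apart.

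E2f8 varied most in the family, and its level in liver is what chose the family. On the liver arrays of pools A, B and C its log2 expression was 8.16, 8.18 and 7.24 under Control, and 7.39, 6.81 and 7.30 under HCD. It was 8.30, 7.90 and 8.50 under HCD+Gl-1, 8.03, 7.74 and 8.24 under HCD+Gl-2, and 8.02, 8.00 and 7.52 under HCD+Sim. The HCD arrays were the lowest, with 1 Control array, that of pool C, lying among them, and the arrays of the 3 supplemented groups all lay above every HCD array.

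The order of the liver group means of E2f8 was HCD+Gl-1 at 8.23 ± 0.31 (SD, n = 3), HCD+Gl-2 at 8.00 ± 0.25, Control at 7.86 ± 0.53, HCD+Sim at 7.85 ± 0.29 and HCD at 7.17 ± 0.31. The range of the group means was 1.07, or 2.09-fold, against a median SD within groups of 0.31. Its ends, HCD+Gl-1 and HCD, are groups whose difference chose the family, so this range is a description only. Among the other 7 members the range of liver group means was from 0.11 for E2f4 to 0.36 for E2f6. Neighbours in the order of E2f8 down to HCD+Sim did not differ beyond their spread.

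**Figure D1:**
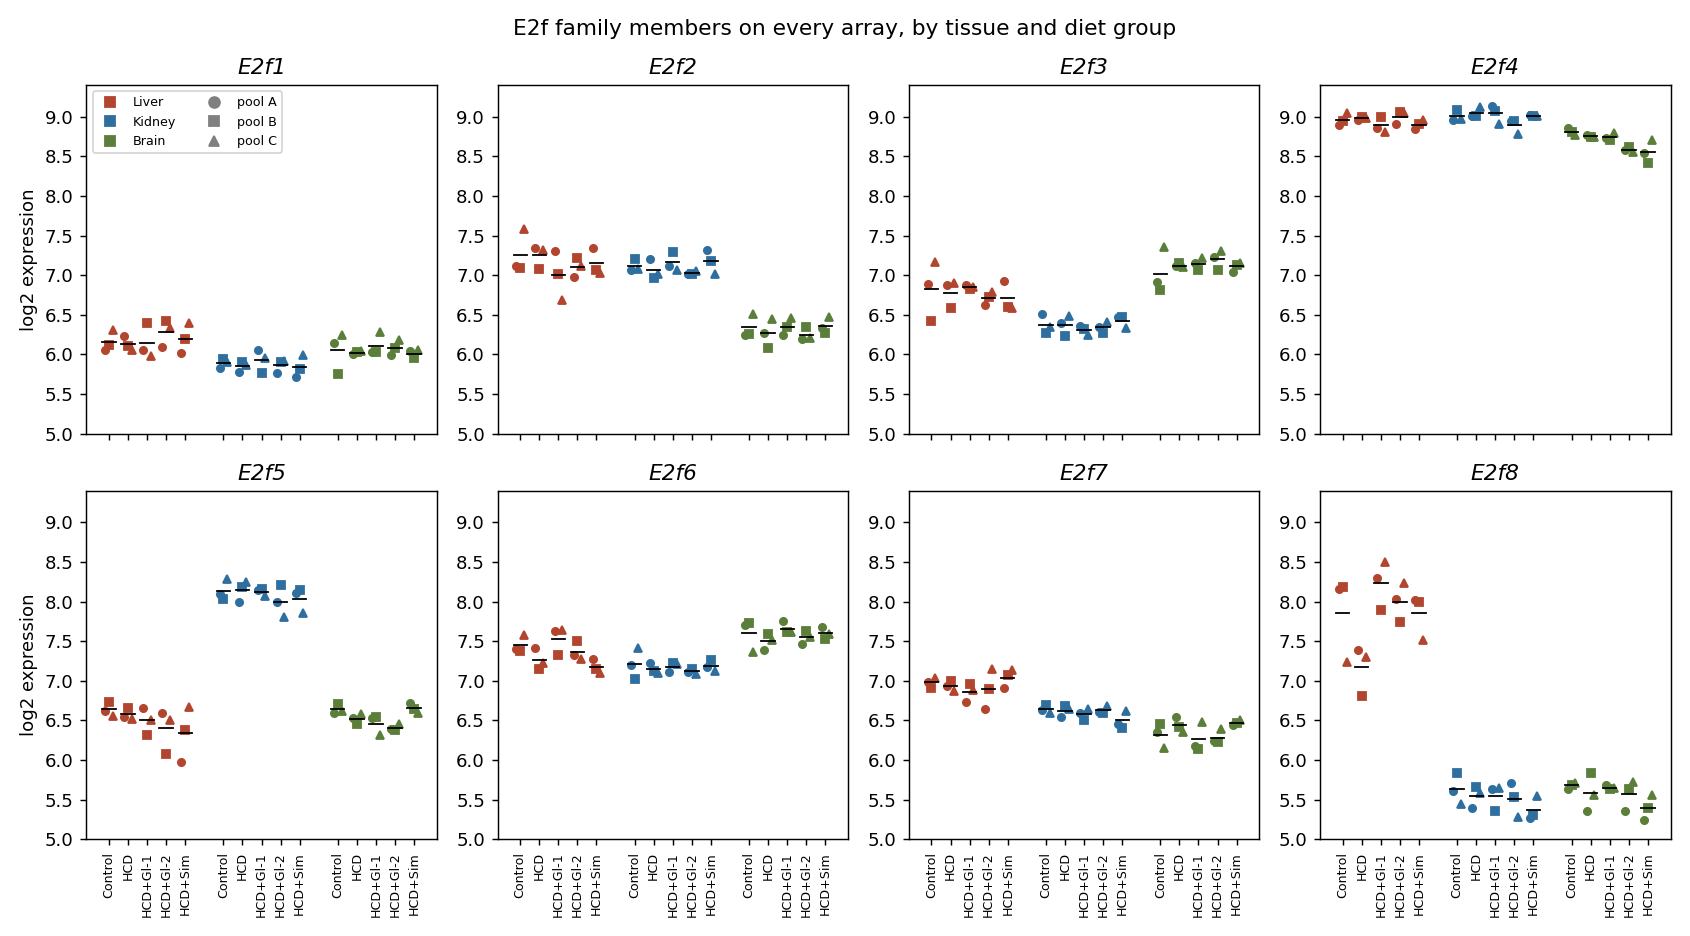
Log2 expression (vertical axis) of each E2f member on all 45 arrays, by diet (horizontal axis), with tissue by colour, pool by symbol and the mean of 3 arrays as a line. E2f8 is high in liver, from 6.81 to 8.50, and stays between 5.24 and 5.84 in kidney and brain. Its liver level under the extracts against HCD chose the family. E2f5 is highest in kidney.

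Whether the extracts moved the family in liver was read from the comparisons with HCD. E2f8 was higher under HCD+Gl-1 by 1.07 on the log2 scale (SE 0.18), or 2.09-fold, and under HCD+Gl-2 by 0.84 (SE 0.18), or 1.79-fold. These values chose the family. Of all genes, 0.163% under HCD+Gl-1 and 0.303% under HCD+Gl-2 were DE, meaning differentially expressed with an absolute log2 fold change over 0.7 and a Benjamini-Hochberg adjusted p of at most 0.05 in limma, and nothing is read from E2f8 lying past both limits in each, which its choice used. The other 7 members did not lie past them. Under HCD+Gl-2 the value of E2f8 moved with single arrays: it was 0.66 without the HCD array of pool B and 0.72 without the HCD+Gl-2 array of pool C, and neither lay past both limits. With the spread estimated from the liver arrays alone, in place of all 45, E2f8 was past the limits under neither extract. As the choice used these values, where they lie against the limits is a description and no test. The share of squamous, pancreas acinar, skeletal muscle and leukocyte marker genes that were DE in the extract comparisons was 0 of 12, 0 of 9, 0 of 8 and 0 of 8 in each. The skeletal muscle array means under HCD+Gl-1, from 6.22 to 6.40, all lay below those under HCD, from 6.42 to 6.69. So did the squamous means, from 5.82 to 5.83 against 5.85 to 5.89. The pancreas acinar and leukocyte means overlapped those under HCD, as did all of these lists under HCD+Gl-2. Their part in the E2f8 values was not tested.

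The other 7 members differed little from HCD under the extracts. The activators E2f1, E2f2 and E2f3 differed by 0.01, -0.25 and 0.07 under HCD+Gl-1 and by 0.15, -0.14 and -0.07 under HCD+Gl-2. The repressors E2f4 and E2f5 differed by -0.09 and -0.08 under HCD+Gl-1 and by 0.02 and -0.18 under HCD+Gl-2. E2f6 was 0.27 higher under HCD+Gl-1 and 0.11 higher under HCD+Gl-2, and E2f7, the other atypical member, differed by -0.08 and -0.04 with an SE of 0.09. The median over the 8 members was -0.03 under HCD+Gl-1 and -0.01 under HCD+Gl-2, beside -0.01 and 0.01 over all genes.

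**Figure D2:**
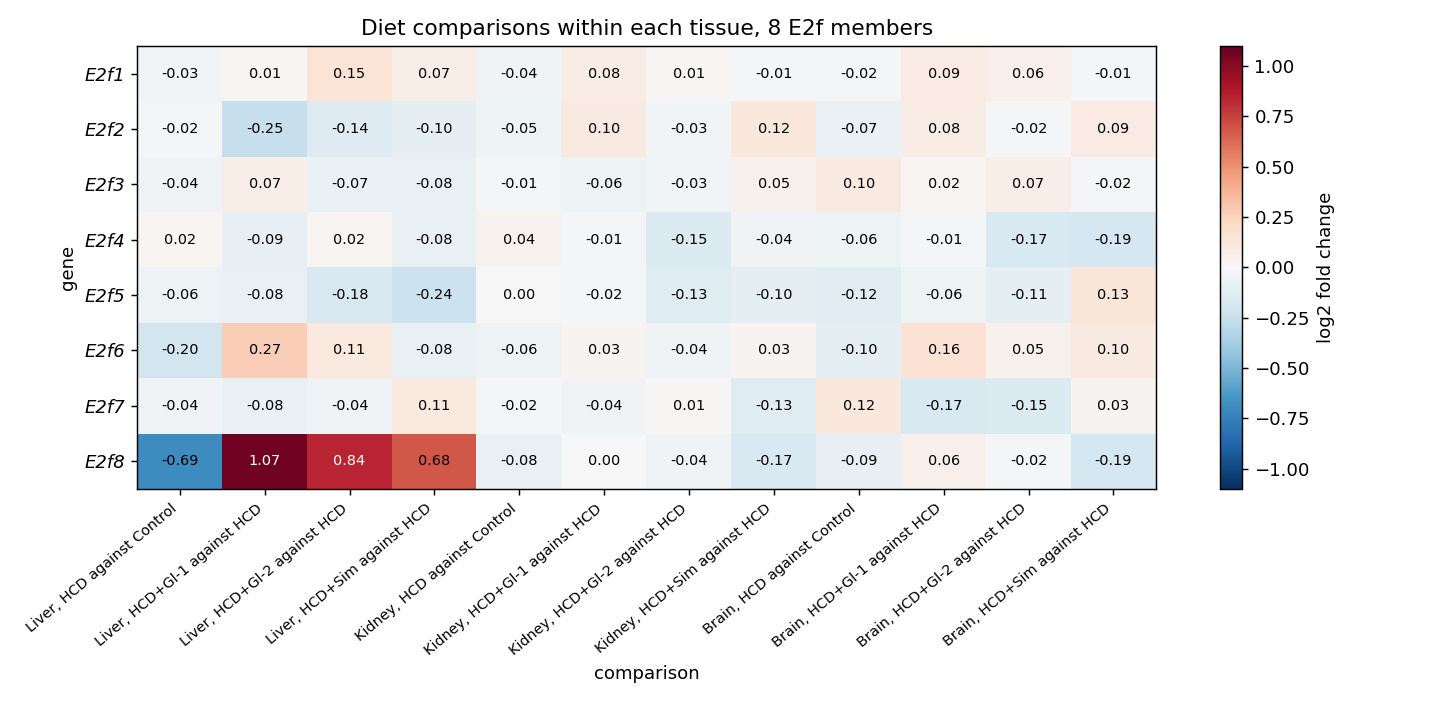
Log2 fold changes of the 8 E2f members (rows) in 4 diet comparisons in each of 3 tissues (columns), printed in each cell and coloured from blue (lower) to red (higher). The liver cells of E2f8, from -0.69 to 1.07, stand out from all others, which lie between -0.25 and 0.27. Those of E2f8 for the extracts against HCD in liver chose the family.

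The effect of cholesterol itself was read from HCD against Control. In liver E2f8 was 0.69 lower on the log2 scale under HCD (SE 0.18, 95% confidence interval from -1.06 to -0.32, limma adjusted p = 0.0461, or 0.0571 with the pool letter as a replicate block), or 1.62-fold, which missed the limit of 0.7, so that 0 of 8 members were DE beside 0.245% of all genes, and 1 of 8 passed the adjusted p alone beside 1.34%. At an unadjusted p under 0.05, E2f6 at -0.20 joined E2f8, which made 2 of 8 members beside 10.3% of all genes. The HCD arrays are those that chose the family, so this value is not independent of the choice. It also moved with single arrays of both groups. Without 1 Control array it was -0.54, -0.53 and -1.0 for pools A, B and C (limma adjusted p = 0.257, 0.313 and 0.000509), and without 1 HCD array it was -0.80, -0.51 and -0.76 (adjusted p = 0.0482, 0.283 and 0.0697). With pools A and B only it was -1.07, and with pool C as the only Control array it was -0.08. With the spread estimated from liver arrays alone the adjusted p of the -0.69 was 0.425.

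The 2 Control arrays with high E2f8 were those with the higher squamous epithelium signal. Of that list, 3 of 12 genes were DE lower under HCD, Krt4, Krt13 and Sprr3, epithelial keratins and a cornified envelope protein, chosen here after their values were seen. Of the skeletal muscle list 1 of 8 was DE lower, with array means from 6.87 to 7.05 under Control and from 6.42 to 6.69 under HCD. The leukocyte list had array means from 7.11 to 7.26 under Control and from 7.05 to 7.08 under HCD with 0 of 8 DE. The part of these genes in the E2f8 value was not tested beyond the value with the pool C array alone.

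Simvastatin was compared with HCD in the same way. In liver E2f8 was 0.68 higher on the log2 scale under HCD+Sim (SE 0.18, 95% confidence interval from 0.30 to 1.05, limma adjusted p = 0.0583), or 1.60-fold, a value that uses the HCD arrays of the choice and is not independent of it. The arrays of the 2 groups did not overlap, as held for 13.4% of all genes, and 0 of 8 members were DE beside 0.258% of all genes, E2f8 alone having an unadjusted p under 0.05, as 11.7% of all genes did. Without the HCD+Sim array of pool C the difference was 0.84 (adjusted p = 0.0239), and with that array alone it was 0.35. With pools A and B only the difference was 0.91. The 2 HCD+Sim arrays with higher E2f8, those of pools A and B, were also those with the most pancreas and muscle signal, 8 of 9 and 4 of 8 of those genes being DE higher than under HCD, and the leukocyte list had array means from 7.24 to 7.34. Their part in the E2f8 value was not tested further. The other 7 members differed from HCD by -0.24 for E2f5 to 0.11 for E2f7.

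**Figure D3:**
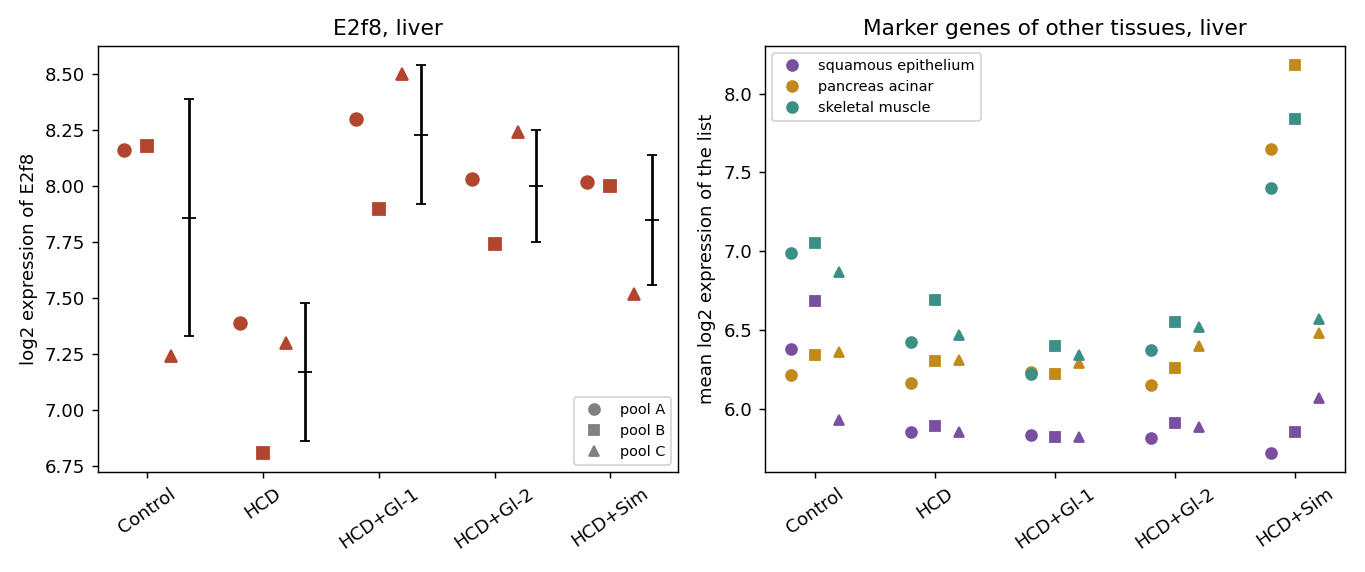
Left, log2 expression of E2f8 on each liver array by diet, with the mean and SD of 3 arrays beside the points. Right, mean log2 expression of squamous epithelium, pancreas acinar and skeletal muscle genes on the same arrays. The Control arrays of pools A and B, at 8.16 and 8.18 for E2f8, are the ones with squamous means of 6.38 and 6.68, while all arrays of both extract groups lie at or below 5.91.

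One liver comparison used no array of the choice, HCD+Sim against Control. There E2f8 differed by -0.01 (95% confidence interval from -0.39 to 0.36, limma adjusted p = 0.989), and 0 of 8 members were DE beside 0.358% of all genes. The E2f8 value turned on the Control array of pool C: it was -0.32 without it (adjusted p = 0.461) and 0.60 with it as the only Control array (adjusted p = 0.309). At an unadjusted p under 0.05, E2f5 at -0.30 (limma adjusted p = 0.296) and E2f6 at -0.28 (adjusted p = 0.155) were counted, 2 of 8 members beside 11.8% of all genes, and neither passed after adjustment. The repressor E2f6 read 7.40, 7.38 and 7.58 under Control and 7.27, 7.15 and 7.10 under HCD+Sim, without overlap, as held for 13.2% of all genes. The extract groups and Control, which share arrays with the choice, differed in E2f8 by 0.37 for HCD+Gl-1 (interval from 0.00 to 0.75, adjusted p = 0.275) and by 0.14 for HCD+Gl-2 (interval from -0.23 to 0.52, adjusted p = 0.815). In these comparisons 0 of 8 members were DE, beside 0.322% and 0.584% of all genes. Both values turned on pool C. The HCD+Gl-1 value was -0.07 with pools A and B only and 0.99 with pool C as the only Control array (adjusted p = 0.022). The HCD+Gl-2 value was -0.28 with pools A and B only, -0.16 without the Control array of pool C (adjusted p = 0.772) and 0.76 with it as the only Control array (adjusted p = 0.106).

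The 2 extracts, which differ by the enrichment of the substrate, did not differ in E2f8 beyond their spread. HCD+Gl-2 was 0.23 below HCD+Gl-1, a log2 difference of -0.23 with an interval from -0.60 to 0.14 and a limma adjusted p of 0.525, and 0 of 8 members were DE between them beside 0.172% of all genes. Against HCD+Sim, E2f8 was 0.39 higher under HCD+Gl-1 (adjusted p = 0.213) and 0.16 higher under HCD+Gl-2 (adjusted p = 0.797), with 0 of 8 members DE in either beside 0.249% and 0.285% of all genes. With pools A and B only these values were 0.09 and -0.12. Over the 8 liver comparisons that the choice had not used, 9 of 64 member values had an unadjusted p under 0.05 in limma, beside 14.9% of the values of all genes, so the members' share was near that of all genes. Of the 9, 4 were E2f8 values, each from a comparison with HCD or extract arrays.

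E2f6 was the one other member past the adjusted p limit in a liver diet comparison. Its log2 expression on pools A, B and C was 7.63, 7.33 and 7.64 under HCD+Gl-1 and 7.27, 7.15 and 7.10 under HCD+Sim, so the groups did not overlap, as held for 16.0% of all genes. The difference was 0.36 (limma adjusted p = 0.029), short of the limit of 0.7, where 4.09% of all genes passed the adjusted p alone. With pool C as the only HCD+Sim array it was 0.43 (adjusted p = 0.0567).

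The methods describe pool C as a mixture of A and B, and in such a mixture the level of a transcript would lie between theirs, apart from noise between arrays. For E2f8 this held in 1 of 5 liver groups and in 4 of 15 groups over the 3 tissues. Over all genes, the share lying between was from 20.4% to 35.5% by group. In liver the value of E2f8 in pool C less the mean of A and B was -0.92 under Control and -0.49 under HCD+Sim, and 0.40 and 0.36 under HCD+Gl-1 and HCD+Gl-2. Some genes lay far outside. The acute-phase gene Saa1 read 11.42, 11.97 and 6.71 on liver pools A, B and C under HCD+Sim, and 8.08, 7.83 and 8.21 under HCD. Noise between arrays can also place pool C outside A and B, so nothing is read from the share for E2f8. Neither the part of noise nor another cause of the values outside was tested.

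Tfdp1 and Tfdp2 encode the DP partners. Tfdp1 differed by 0.27 under HCD+Gl-1 and by 0.19 under HCD+Gl-2 from HCD, and Tfdp2 by 0.12 and 0.01. Under HCD+Gl-1 the 3 arrays of Tfdp1 read 8.56, 8.69 and 8.61, all above those under HCD at 8.50, 8.15 and 8.39, a lack of overlap that 14.7% of all genes showed. Against Control, Tfdp1 was 0.26 higher under HCD+Gl-1 (limma adjusted p = 0.0583). Rb1, Rbl1 and Rbl2 encode the pocket proteins, which hold E2F factors in check. Under HCD+Gl-1 they differed from HCD by 0.12, 0.14 and -0.00, and under HCD+Gl-2 by -0.23, 0.03 and -0.21. Rb1 was 0.35 lower under HCD+Gl-2 than under HCD+Gl-1, a log2 difference of -0.35 with an adjusted p of 0.0282, which did not reach 0.7.

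No gene of 7 cell-cycle lists, 80 genes in all, was DE in any of the 10 liver comparisons, where the share of all genes was from 0.163% to 0.584%, under 1 gene in 80. At an unadjusted p under 0.05, 10 of the 80 passed for HCD against Control and 8 for HCD+Sim against HCD, beside 10.3% and 11.7% of all genes. The 30 G1/S target genes, which hold the MCM helicase and nucleotide synthesis enzymes and are the classical targets of E2F, had a median log2 fold change of -0.00 under HCD+Gl-1 (14 higher, 16 lower) and of 0.01 under HCD+Gl-2 (16 higher, 14 lower) against HCD. Over all genes the medians were -0.01 and 0.01. For HCD against Control 15 of the 30 were higher and 15 lower.

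The 24 G2/M genes, which act in mitosis, had a median of -0.10 for HCD against Control, beside -0.01 over all genes, with 18 of 24 lower. Over all genes the medians against HCD were -0.01 under HCD+Gl-1, 0.01 under HCD+Gl-2 and 0.03 under HCD+Sim. Those of the G2/M genes were 0.12 (16 of 24 higher), 0.08 (17 of 24 higher) and 0.05 (18 of 24 higher) against the same HCD arrays. Of this list 1 of 24 genes passed the adjusted p limit for HCD against Control, as did 1.34% of all genes, the proliferation marker Mki67, named here after its value was seen. It read 6.20, 6.44 and 6.36 under Control and 5.98, 5.85 and 5.99 under HCD, so the groups did not overlap, as held for 14.9% of all genes (log2 difference -0.40, limma adjusted p = 0.0128). The 6 genes of the MuvB complex and B-Myb, which work with E2F4 in the DREAM repressor, had medians of 0.09 for HCD against Control and of 0.03 under each extract. The 8 G1 cyclins and CDKs had medians of 0.00, 0.10 and 0.01 in those comparisons, and the 7 CDK inhibitors had -0.01, -0.02 and 0.06.

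**Figure D4:**
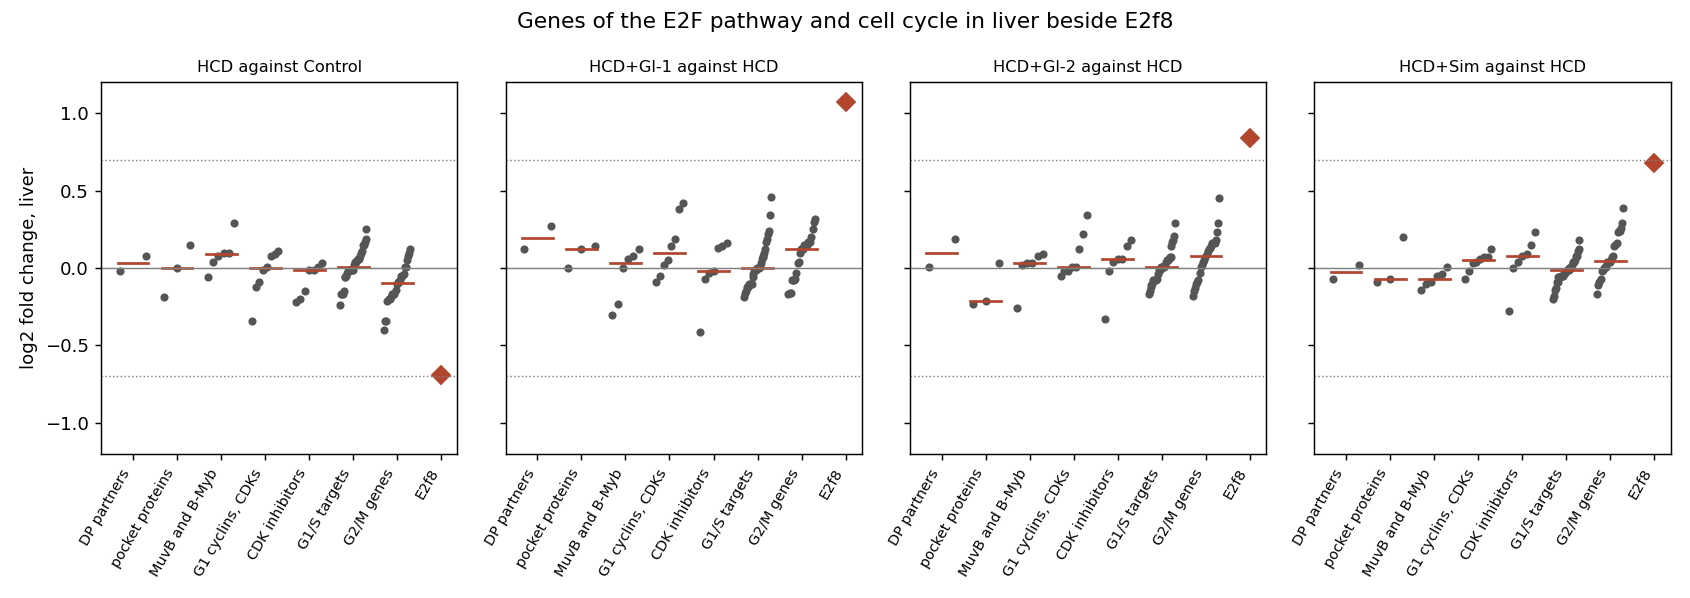
Log2 fold change in liver (vertical axis) of the genes of 7 lists (grey points, red line at the median) and of E2f8 (red diamond) in 4 diet comparisons, with dotted lines at 0.7 and -0.7. All list genes lie between the dotted lines, and E2f8 lies outside them under HCD+Gl-1 at 1.07 and HCD+Gl-2 at 0.84, the values that chose the family.

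Across the 15 liver arrays, the Pearson correlation of E2f8 had a median of -0.14 over the G1/S targets and of -0.08 over the G2/M genes, beside -0.07 over all other genes. With the other members it was from -0.59 for E2f4 to 0.39 for E2f6, and for the atypical pair E2f7 and E2f8 it was -0.25 over the liver arrays, 0.66 over the kidney arrays and -0.29 over the brain arrays. These are descriptions over 15 arrays that share pools and normalization. The 5 genes most like E2f8 over the liver arrays were Gne (0.825), which makes the precursor of sialic acid, B3galt1 (0.809), a galactosyltransferase, Gfra1 (0.803), a receptor for GDNF, Ang (0.802), a secreted ribonuclease, and Pros1 (0.799), the anticoagulant protein S. By Spearman's measure Idh3a (0.871), a subunit of a Krebs cycle dehydrogenase, came first and Gne (0.861) next. Of these 5, B3galt1 was past both limits under HCD+Gl-1 against HCD, at 0.78, which is given as a description since likeness to E2f8 chose it.

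In kidney no member was DE in any of 10 diet comparisons, where 0.485% of all genes were DE in at least 1. The largest difference was 0.26, for E2f8 between Control and HCD+Sim, and 2 of 80 member values had an unadjusted p under 0.05 in limma, beside 6.34% of the values of all genes. E2f8 read 5.39, 5.66 and 5.59 under HCD, 5.64, 5.36 and 5.65 under HCD+Gl-1 and 5.71, 5.53 and 5.28 under HCD+Gl-2, with complete overlap. It differed from HCD by 0.00 (interval from -0.37 to 0.37) under HCD+Gl-1 and by -0.04 (interval from -0.41 to 0.33) under HCD+Gl-2. The limma F test over all 5 diets called 0 of 8 members beside 1.16% of all genes, the smallest adjusted p being 0.909, for E2f4.

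Whether E2f8 responded differently in liver than in kidney was tested for the contrasts that the choice had not used. For HCD against Control it was -0.61 (interval from -1.14 to -0.08, limma adjusted p = 0.58) and for HCD+Sim against HCD 0.85 (interval from 0.32 to 1.38, adjusted p = 0.195), so 0 of 8 members passed in either, beside 0.149% and 0.254% of all genes. Both use the liver HCD arrays, and both treat the tissues as separate although the same 8 mice of each diet gave them. With pools A and B only the latter was 1.15 (adjusted p = 0.0246), and with pool C as the only liver Control array the former was 0.01.

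In brain no member was DE in any of 10 comparisons, where 0.240% of all genes were DE in at least 1, and 7 of 80 member values had an unadjusted p under 0.05, beside 7.66% of the values of all genes. Of these, 6 belonged to E2f4, the most abundant E2F in many resting cells. E2f4 read 8.86, 8.81 and 8.77 under Control, 8.77, 8.74 and 8.74 under HCD, and 8.73, 8.71 and 8.79 under HCD+Gl-1. It read 8.58, 8.62 and 8.55 under HCD+Gl-2 and 8.54, 8.42 and 8.71 under HCD+Sim. The arrays of these last groups all lay below those of Control and HCD, where 14.5% and 14.6% of all genes did not overlap for HCD+Gl-2 and 14.6% and 15.4% for HCD+Sim. Against Control the difference was -0.23 under HCD+Gl-2 (limma adjusted p = 0.0813) and -0.25 under HCD+Sim (adjusted p = 0.115). The test over the 5 diets gave F = 5.22 for E2f4 (limma adjusted p = 0.123), and 0 of 8 members passed beside 0.371% of all genes. E2f8 in brain differed from HCD by 0.06 under HCD+Gl-1 and by -0.02 under HCD+Gl-2.

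Tissues were compared over all diets, again as if their RNA came from separate mice. With the mean over the 5 diets, 4 members were DE in at least 1 tissue comparison: 2 of 8 for liver against kidney, 2 of 8 for liver against brain and 3 of 8 for kidney against brain, where 16.5%, 32.4% and 30.0% of all genes were DE. E2f8 was higher in liver than in kidney by 2.3 (SE 0.08, limma adjusted p = 1.35e-25), or 4.93-fold, and than in brain by 2.25 (adjusted p = 1.4e-25), or 4.74-fold. All 15 liver arrays, from 6.81 to 8.50 with a median of 8.00, lay above the 15 kidney arrays at 5.27 to 5.84 and the 15 brain arrays at 5.24 to 5.84. Kidney and brain did not differ beyond their spread in E2f8 (-0.06, interval from -0.22 to 0.11). On the Control arrays alone, of which the choice used none, the differences were 2.23 (adjusted p = 1.76e-13) and 2.18 (adjusted p = 1.49e-13).

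E2f5 was highest in kidney. Its array values were 7.81 to 8.28 with a median of 8.11 in kidney, 5.97 to 6.73 with a median of 6.55 in liver, and 6.32 to 6.72 with a median of 6.55 in brain. Kidney did not overlap either other tissue, and liver was lower than kidney by 1.60, a log2 difference of -1.60 (limma adjusted p = 3.33e-26), or 3.02-fold. Kidney was higher than brain by 1.55 (adjusted p = 4.82e-26), and liver and brain did not differ beyond their spread (-0.05, interval from -0.16 to 0.06).

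Among the activators, E2f2 was low in brain and E2f3 was high there. E2f2 ranged from 6.69 to 7.58 in liver, from 6.97 to 7.32 in kidney and from 6.08 to 6.51 in brain, with liver above brain by 0.84 (limma adjusted p = 3.59e-17) and kidney above brain by 0.79. Liver and kidney did not differ in E2f2 beyond their spread (0.04, interval from -0.07 to 0.16). E2f3 ranged from 6.81 to 7.35 in brain and from 6.23 to 6.51 in kidney, a log2 difference of -0.76 for kidney less brain (adjusted p = 9.61e-16), with liver between at 6.42 to 7.17. On the Control arrays alone that difference was -0.65, short of the limit. E2f1 passed the adjusted p limit but not 0.7 in both liver comparisons, with 0.31 against kidney and 0.13 against brain.

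The remaining members differed by less than 0.7 between tissues. E2f7 was highest in liver, by 0.35 over kidney and by 0.59 over brain (limma adjusted p = 5.53e-16), and its liver arrays, 6.65 to 7.15, lay above all brain arrays, 6.14 to 6.54. Between liver and brain 44.5% of all genes did not overlap. Both atypical members were highest in liver. E2f6 was highest in brain, by 0.22 over liver and 0.41 over kidney, with log2 differences of -0.22 for liver less brain and -0.41 for kidney less brain. E2f4 had nearly the same level in liver and kidney (-0.05, interval from -0.11 to 0.01) and was lower in brain, by 0.26 relative to liver and 0.31 relative to kidney.

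**Figure D5:**
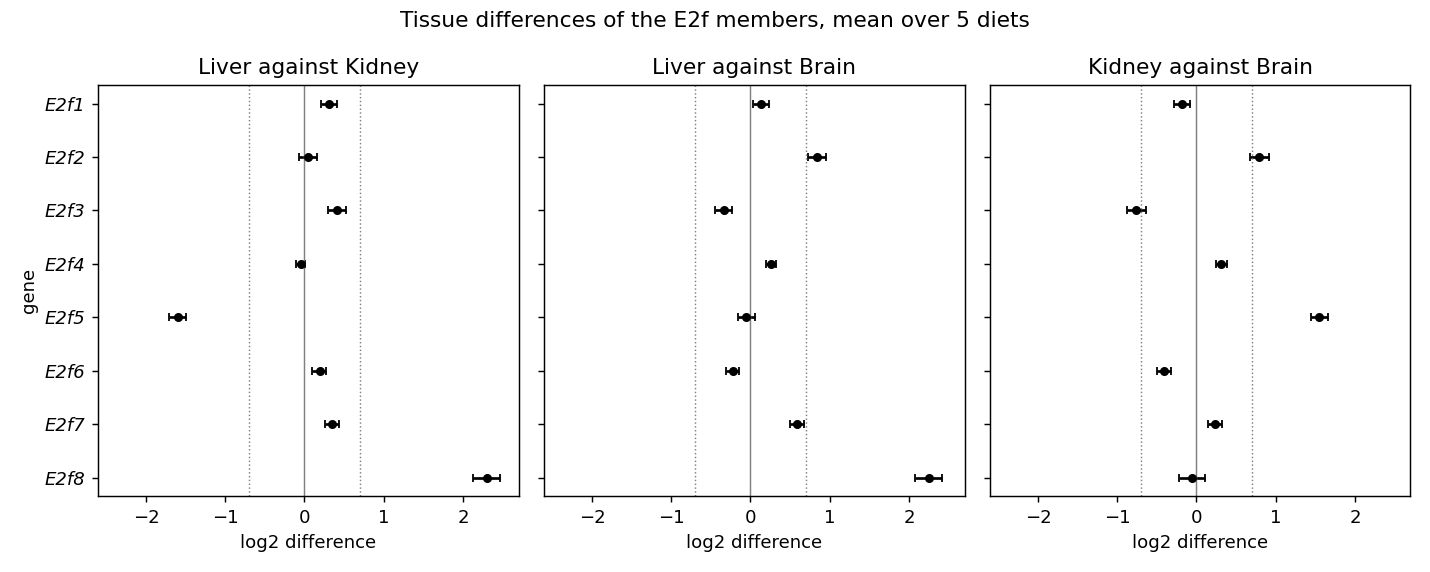
Log2 differences between tissues (horizontal axis, mean over 5 diets) of the 8 E2f members, with 95% confidence intervals from limma and dotted lines at 0.7 and -0.7. E2f8 lies at 2.3 and 2.25 in the liver comparisons, and E2f5 at -1.60 and 1.55 in the kidney comparisons.

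Over the 15 group means, where tissue sets most of the order, the genes most like each member followed its tissue. For E2f8 they were the liver acute-phase genes Saa1 (Pearson r = 0.995) and Orm2 (0.993), and for E2f5 Folr1 (0.995), a folate receptor, and Gcnt1 (0.994), a glycosyltransferase. E2f2 was most like Rnh1 (0.991) and Sec24c (0.990), and E2f3 most like Kpna3 (0.991), an importin, and Foxp2 (0.990), a forkhead factor. For the members that differed less between tissues the values were lower, with Atg16l1 (0.973) and Plcg1 (0.971) for E2f1, E130116L18Rik and Topaz1 (both 0.982) for E2f7, Mrps15 and Gm608 (both 0.964) for E2f4, and Nudt21 (0.946) and Dffa (0.942) for E2f6. The group means of Saa1 and Orm2 shared with E2f8 the order of HCD below the other liver groups. This is a description only, since likeness to E2f8 over these same means chose both genes. Saa1 differed by -2.24 for HCD against Control and by 1.99 for HCD+Sim against HCD. These are likewise descriptions, and neither was past the adjusted p limit. On pool C alone the order did not hold. There Saa1 read 8.21 under HCD, 7.59 under HCD+Gl-2 and 6.71 under HCD+Sim, but 8.25 under HCD+Gl-1 and 11.28 under Control. Orm2 read 7.32 under HCD and 6.90 under HCD+Sim, with the other groups higher.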

How the data were processed

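RNA of each mouse tissue was pooled and hybridized to Affymetrix Mouse Gene ST v1.0 arrays, 45 in all. The deposited table holds log2 expression, which the authors made with RMA background correction and quantile normalization, ComBat batch adjustment (batches not named in the sources used here) and, 1 probe set per gene, that of the widest interquartile range, a choice that favours probe sets that differ between samples. It gives no detection calls, array medians were 6.76 to 6.92, and the number of arrays limits the precision. The genome build was not given in the sources used here. Columns were matched to samples by their labels.

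Group means of the 15 groups were fitted to all 45 arrays with limma 3.58.1 in R 4.3.3 (lmFit, eBayes, 30 residual degrees of freedom), with Benjamini-Hochberg adjustment over the 22080 genes in each comparison. DE required both a log2 fold change beyond 0.7 in size and an adjusted p no higher than 0.05. An exact permutation test of 3 against 3 arrays cannot go below 0.1. The fit was run on simulated data with independent noise on each array. Those data held neither the mixing in pool C nor the mice shared between tissues, so they say nothing of the fit under that dependence. The members and gene lists were chosen with earlier results of these data known. All 8 members were named. Pathway genes were named if DE in liver or if their list had under 4 genes, and the most similar genes by Pearson correlation. Outside this rule, Mki67 was named after its value was seen and Idh3a by Spearman's measure. Alternatives were a fit per tissue, pools A and B only, a replicate block on the pool letter, a filter on dim genes (mean log2 under 6.84, which removed E2f1), quantile normalization within each tissue, a trended robust eBayes, the adjusted p alone, Control arrays only for the tissue comparisons, and leaving out each array. 2 more, chosen after seeing the data, kept pool C as the only array of liver Control or of liver HCD+Sim. Erythroid, leukocyte and other marker lists were checked, with 5 of 8 erythroid genes matched to the table and 0 of these DE in the 4 main liver comparisons. Figures were drawn with matplotlib.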

Additional observations from a re-analysis of the deposited data

How the results depend on the processing

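Of the 80 member values in the 10 liver diet comparisons 2 were past both limits, both of them E2f8 against HCD under the extracts. These values chose the family, so their count is a description and says nothing of stability. It was 0 with the spread estimated from liver arrays alone, 4 with pools A and B only, 4 with the adjusted p alone, and from 1 to 3 on leaving out single arrays. Both counts of 1 lost E2f8 under HCD+Gl-2, without the HCD array of pool B and without the HCD+Gl-2 array of pool C. The tissue comparisons gave 7 DE values, 20 by the adjusted p alone and 6 to 7 in the other alternatives. In brain the test over the 5 diets called 0 members, 1 with pools A and B only (E2f4), and 0 to 1 on leaving out single arrays, the calls coming without the Control or the HCD+Sim array of pool C. The liver against kidney response called 0 members and 1, E2f8, with pools A and B only (1.15). Small differences of E2f8 in liver turned direction. With pools A and B only, HCD+Gl-1 against Control was -0.07, HCD+Gl-2 against Control -0.28 and HCD+Gl-2 against HCD+Sim -0.12. With pool C as the only liver Control array, HCD+Sim against Control was 0.60 and the liver against kidney response to HCD 0.01. On leaving out single arrays, HCD+Gl-2 against Control ran from -0.16 to 0.30, HCD+Gl-2 against HCD+Sim from -0.00 to 0.29, and HCD+Sim against Control from -0.32 to 0.15. The cause was not tested. The kidney counts stayed at 0 in every alternative, and so did the counts for the diet comparisons in brain. The main fit has no term for the pool letter. In liver, deviations of arrays with the same letter had a median correlation of 0.07, beside -0.04 for different letters. Of these same-letter pairs 12 of 30 were over 0.1. In kidney 3 of 30 and in brain 7 of 30 were over 0.1, with medians of -0.00 and -0.03. With the replicate block the liver count was 2 and the tissue count 7, and E2f8 for HCD against Control had an adjusted p of 0.0571 by limma. Without detection calls, low signals such as that of E2f1 cannot be told from background.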
